A study of Mus musculus with 6 samples.

Results

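The enzymes that turn tryptophan into kynurenine and then into NAD were followed as 10 genes, taken by symbol in the order of the pathway and mapped to the identifiers of the count tables: Tdo2, Ido2, Afmid, Kmo, Kynu, Haao, Acmsd, Qprt, Naprt and Nadsyn1. They are 10 of 55487 genes in the tables and 10 of 13296 genes with enough reads to be tested, so no member was lost to the filter on low counts. RNA was sequenced from cultured, untreated primary hepatocytes of 2 genotypes on a B6CBAF1 background, with 3 libraries each. Alb/MDA-9 mice carried a transgene that places human MDA-9/SDCBP (the scaffold protein syntenin), HA-tagged at its C terminus, behind the core albumin promoter of the mouse and an upstream enhancer, for expression in hepatocytes. WT mice were littermates from crosses of WT with heterozygous Alb/MDA-9 animals, and both genotypes were fed regular chow. The labels do not say whether the 3 libraries of a genotype came from separate animals or cultures, so a p-value here is set by differences among the 3 libraries of a genotype, which may be technical. Parental-strain segments shared by the libraries of a genotype cannot be told apart from an effect of the transgene.

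The liver clears most dietary tryptophan through the kynurenine pathway. Tryptophan 2,3-dioxygenase (Tdo2) opens the ring of tryptophan in hepatocytes, and indoleamine 2,3-dioxygenases (Ido1, Ido2) catalyse the same step. Formamidase (Afmid), kynurenine monooxygenase (Kmo), kynureninase (Kynu) and 3-hydroxyanthranilate dioxygenase (Haao) then lead to an unstable semialdehyde. That semialdehyde either closes to quinolinate, which Qprt turns into nicotinate mononucleotide on the way to NAD, or is removed towards oxidation by the decarboxylase Acmsd. Naprt makes the same mononucleotide from dietary nicotinic acid, and Nadsyn1 performs the final amidation to NAD for both routes.

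Counted reads numbered 16403918 to 19046739 per library on the annotated strand. Values below are CPM, read counts scaled to library size with TMM factors, unless CPM per kb of exon is named. The first principal component (55.5% of the variance) split the genotypes. The second component (16.98%) set library Alb/MDA-9 3, at -32.9, against Alb/MDA-9 1 and 2, at 16.2 and 14.3. WT 1, 2 and 3 lay between them, at -2.59, 1.71 and 3.17. Changes that depended on Alb/MDA-9 3 are therefore also given without it. The hepatocyte transcript Alb had 55090.0 to 70170.0 CPM in Alb/MDA-9 libraries and 54048 to 58379 CPM in WT, and all 10 hepatocyte markers examined were abundant enough to be tested. Of these markers 1 rose (Trf) and 1 fell (Serpina1a), against 7.35% and 7.09% of all tested genes. Without Alb/MDA-9 3, 5 of them rose (Trf, Alb, Fga, Fgb and Ahsg).

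Transcripts of Tdo2 and Haao, the first oxygenase and the ring-opening dioxygenase further down the pathway, fell in Alb/MDA-9 to 61.0% and 63.6% of the WT mean. The other 8 members did not pass the test, and 0 of 10 members rose (quasi-likelihood test of edgeR, p adjusted by Benjamini-Hochberg over all genes, threshold 0.05). Fitted log2 changes were below 0 for 9 members and above 0 for Qprt, with a median of -0.28 against -0.0015 over all tested genes. The share of all tested genes called lower was 7.09%, and the share called higher was 7.35%. The count depended on single libraries: 0 members fell without Alb/MDA-9 2 and 1 fell without WT 2, whereas 4 fell without Alb/MDA-9 3. The count over all tested genes moved the same way, from 943 falls with every library. It was 579 of 13710 without Alb/MDA-9 2, 515 of 13516 without WT 2 and 1208 of 13695 without Alb/MDA-9 3. In bulk RNA a lower value can come from fewer cells of a type or from less RNA per cell, and these cannot be told apart.

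**Figure D1:**
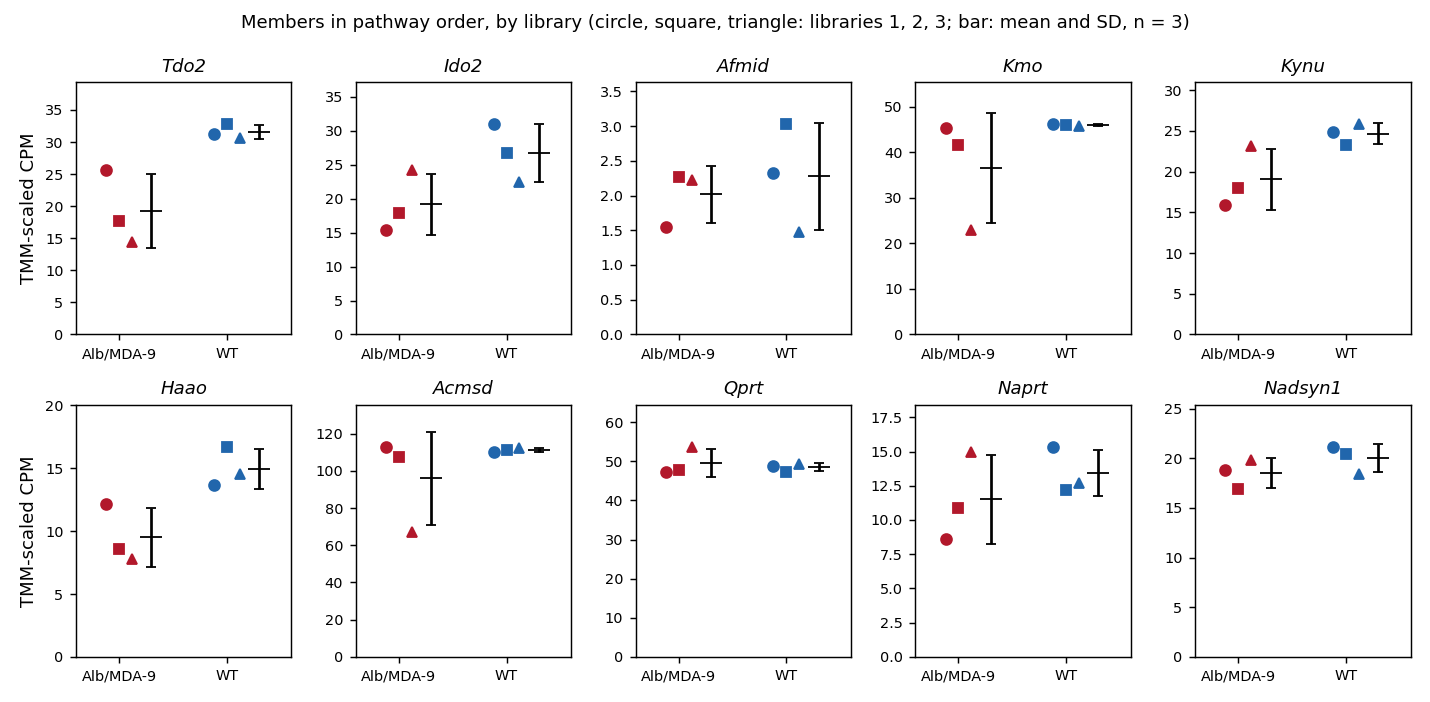
TMM-scaled CPM (vertical axes, from 0) of the 10 members in each library, with Alb/MDA-9 in red on the left and WT in blue on the right of each panel. Circles, squares and triangles are libraries 1, 2 and 3, and bars give the mean and SD (n = 3). Tdo2 lay between 14.5 and 25.6 CPM in Alb/MDA-9 libraries and between 30.6 and 32.8 CPM in WT, while Kmo and Acmsd were low in Alb/MDA-9 3.

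Of the genes for the step from tryptophan to formylkynurenine, Tdo2 and Ido2 had enough reads to be tested in these cells. Tdo2 (ENSMUSG00000028011, chromosome 3, 81957090 to 81976202 on GRCm38, minus strand) had 25.6, 17.7 and 14.5 CPM in libraries Alb/MDA-9 1, 2 and 3 and 31.3, 32.8 and 30.6 CPM in WT 1, 2 and 3. The groups did not overlap, and the Alb/MDA-9 libraries spread far more widely than the WT libraries, with a coefficient of variation of 29.7% in Alb/MDA-9 against 3.50% in WT. The mean was 19.2 ± 5.72 CPM in Alb/MDA-9 libraries and 31.6 ± 1.10 CPM in WT (SD, n = 3), a fitted log2 difference of -0.71 (SE 0.16, edgeR adjusted p = 0.0108). Without Alb/MDA-9 2 the call ended at a log2 change of -0.65 (edgeR adjusted p = 0.0602), and it held without any other single library. The size of the change moved more with other libraries, to -0.54 without Alb/MDA-9 3 and -0.97 without Alb/MDA-9 1.

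Ido2 (ENSMUSG00000031549, chromosome 8, 24531892 to 24576333, minus strand), a dioxygenase known for lower activity towards tryptophan, had 15.4, 17.8 and 24.2 CPM in Alb/MDA-9 libraries and 30.95, 26.7 and 22.4 CPM in WT. Here Alb/MDA-9 3 was the highest library of its group and lay inside the WT range, so the groups overlapped. The log2 change was -0.48 (SE 0.16, edgeR adjusted p = 0.0631), which did not pass. Without Alb/MDA-9 3 the log2 change was -0.69 (edgeR adjusted p = 0.00245), without WT 3 it was -0.59 (edgeR adjusted p = 0.0465), and DESeq2 called it with all libraries (adjusted p = 0.0279). Leaving out others moved it the other way or took it further from the threshold, to -0.35 without Alb/MDA-9 1, -0.44 without Alb/MDA-9 2 and -0.36 without WT 1 (edgeR adjusted p = 0.181, 0.199 and 0.238). Ido1, the inducible dioxygenase of immune and other extrahepatic cells, was too low to test, at 0.0553, 0 and 0.181 CPM in Alb/MDA-9 libraries and 0.404, 0.154 and 0.0592 CPM in WT, where 3 reads correspond to 0.158 to 0.183 CPM of a library's total.

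Because Tdo2 and Ido2 catalyse the same step, their ratio was formed within each library from CPM per kb of exon. The log2 ratio of Tdo2 over Ido2 was 0.64, -0.10 and -0.84 in Alb/MDA-9 1, 2 and 3 and -0.08, 0.20 and 0.35 in WT 1, 2 and 3. Alb/MDA-9 thus held both the highest and the lowest ratio. The mean was -0.10 ± 0.74 in Alb/MDA-9 and 0.16 ± 0.22 in WT (SD, n = 3), a difference of -0.26 that was smaller than the spread in Alb/MDA-9 (exact two-sided permutation test, p = 0.6, where 0.1 is the smallest p that 3 against 3 libraries allow). Without Alb/MDA-9 3 the difference turned to 0.11.

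Afmid (ENSMUSG00000017718, chromosome 11, 117825924 to 117839908, plus strand), which releases kynurenine from formylkynurenine, was the least abundant member. It had 1.55, 2.27 and 2.23 CPM in Alb/MDA-9 libraries and 2.32, 3.02 and 1.48 CPM in WT, from 25 to 59 reads a library. The groups overlapped, and the log2 change of -0.19 (SE 0.32, edgeR adjusted p = 0.749) had a 95% interval of -0.88 to 0.50, wide enough to hold a change of either sign. Its counts are uncertain, since 44.2% of its exon bases in GENCODE M21 also belong to Gm20708, a gene on the same strand with 0 counted reads, and reads in such bases are given to neither gene. Tk1, a thymidine kinase gene of dividing cells that overlaps Afmid on the opposite strand, had 0.939, 0.699 and 0.903 CPM in Alb/MDA-9 libraries and 5.81, 4.10 and 3.55 CPM in WT.

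Kmo and Kynu, the enzymes that hydroxylate kynurenine and then remove its alanine side chain, differed in which library was low. Kmo (ENSMUSG00000039783, chromosome 1, 175620381 to 175662116, plus strand) had 45.3, 41.7 and 22.9 CPM in Alb/MDA-9 libraries and 46.1, 46.1 and 45.7 CPM in WT. Alb/MDA-9 3 held 49.7% of the WT mean and Alb/MDA-9 1 held 98.5%. The groups just failed to overlap, by less than counting error: the value of Alb/MDA-9 1 had a 95% Poisson interval of 42.3 to 48.5 CPM and the lowest WT value one of 42.6 to 49.1 CPM. The log2 change was -0.33 (SE 0.18, edgeR adjusted p = 0.262), -0.08 without Alb/MDA-9 3 and -0.51 without Alb/MDA-9 1. Fh1, the fumarate hydratase gene that overlaps Kmo on the opposite strand, had 112.9, 111.2 and 86.8 CPM in Alb/MDA-9 libraries and 102.4, 102.4 and 105.2 CPM in WT.

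Kynu (ENSMUSG00000026866, chromosome 2, 43555329 to 43682715, plus strand) had 15.9, 18.0 and 23.2 CPM in Alb/MDA-9 libraries and 24.9, 23.3 and 25.8 CPM in WT. Alb/MDA-9 3 was the highest of its group and came within counting error of WT 2, while Alb/MDA-9 1 and 2 held 64.5% and 73.0% of the WT mean. The log2 change was -0.37 (SE 0.13, edgeR adjusted p = 0.0765) over all libraries and -0.54 without Alb/MDA-9 3, where it passed the test (edgeR adjusted p = 0.00326). It was -0.26 without Alb/MDA-9 1 (edgeR adjusted p = 0.206). Kynu and Kmo are also known from macrophages, and markers of Kupffer cells (liver macrophages) moved with the genotype: 10 of 14 tested markers fell and 0 rose. Over all tested genes 7.09% fell and 7.35% rose. The summed level of the 15 Kupffer and macrophage markers was 269.6 to 420.5 CPM in Alb/MDA-9 libraries and 459.0 to 469.1 CPM in WT, with none at 0 in every library. Cd68 led this sum, at 322.1, 284.0 and 137.3 CPM in Alb/MDA-9 libraries and 262.4, 266.9 and 284.1 CPM in WT, and did not pass the test (edgeR adjusted p = 0.743). Without Cd68 the other 14 summed to 98.4, 111.3 and 132.2 CPM in Alb/MDA-9 libraries and 197.97, 192.1 and 185.0 CPM in WT, so Alb/MDA-9 3 was then the highest of its group. The part of these cells in the Kmo and Kynu values was not tested.

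Haao (ENSMUSG00000000673, chromosome 17, 83831156 to 83847963, minus strand), the dioxygenase that opens the ring of 3-hydroxyanthranilate, had 12.2, 8.62 and 7.77 CPM in Alb/MDA-9 libraries and 13.6, 16.7 and 14.6 CPM in WT. The groups did not overlap, and Alb/MDA-9 1 came closest to WT, as it did for Tdo2. The mean was 9.51 ± 2.33 CPM in Alb/MDA-9 libraries and 14.97 ± 1.58 CPM in WT (SD, n = 3), a fitted log2 difference of -0.65 (SE 0.17, edgeR adjusted p = 0.0215). Without Alb/MDA-9 2, WT 2 or WT 3 the call ended, at log2 changes of -0.59, -0.56 and -0.67 (edgeR adjusted p = 0.092, 0.107 and 0.0529). The log2 change was -0.53 without Alb/MDA-9 3 and -0.87 without Alb/MDA-9 1, and Haao passed the test in both. A test against a fold of 1.5 called neither Haao nor Tdo2 (edgeR glmTreat adjusted p = 1 for each).

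Acmsd and Qprt stand at the branch between oxidation and NAD synthesis, and neither passed the test. Acmsd (ENSMUSG00000026348, chromosome 1, 127729413 to 127767978, plus strand), the most abundant member, had 112.9, 107.7 and 67.1 CPM in Alb/MDA-9 libraries and 110.3, 111.1 and 112.3 CPM in WT. Alb/MDA-9 1 and 2 lay at the WT level and Alb/MDA-9 3 held 60.3% of the WT mean, so that the log2 change of -0.21 (SE 0.15, edgeR adjusted p = 0.371) became -0.01 without that library and -0.35 without Alb/MDA-9 1. Qprt (ENSMUSG00000030674, chromosome 7, 127107114 to 127122226, minus strand) had 47.1, 47.7 and 53.7 CPM in Alb/MDA-9 libraries and 48.7, 47.4 and 49.3 CPM in WT. Its log2 change was 0.03 (SE 0.08, edgeR adjusted p = 0.837), with a 95% interval of -0.14 to 0.20 that was the narrowest among the members. The sign of the Qprt change turned with library totals (-0.072), with upper-quartile factors (-0.0084) and without Alb/MDA-9 3 (-0.032).

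The log2 ratio of Acmsd over Qprt, in CPM per kb, was 1.16, 1.08 and 0.22 in Alb/MDA-9 1, 2 and 3 and 1.08, 1.13 and 1.09 in WT 1, 2 and 3. Alb/MDA-9 3 alone lay outside the narrow band of the other libraries. The mean was 0.82 ± 0.52 in Alb/MDA-9 and 1.10 ± 0.03 in WT (SD, n = 3), a difference of -0.28 (exact two-sided permutation test, p = 0.7), and the difference was 0.02 without Alb/MDA-9 3.

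Naprt and Nadsyn1, which serve the nicotinic acid route and the last step to NAD, also missed the threshold. Naprt (ENSMUSG00000022574, chromosome 15, 75890956 to 75894481, minus strand) had 8.62, 10.9 and 14.99 CPM in Alb/MDA-9 libraries and 15.3, 12.2 and 12.7 CPM in WT. Alb/MDA-9 1 and 2 were below every WT library and Alb/MDA-9 3 was inside the WT range. The log2 change was -0.23 (SE 0.18, edgeR adjusted p = 0.457), and it was -0.46 without Alb/MDA-9 3, -0.12 without WT 1 and -0.054 without Alb/MDA-9 1. Naprt shares 11.8% of its exon bases with Eef1d on the same strand, where reads are not counted for either gene. Nadsyn1 (ENSMUSG00000031090, chromosome 7, 143795584 to 143822849, minus strand) had 18.8, 16.9 and 19.8 CPM in Alb/MDA-9 libraries and 21.2, 20.5 and 18.4 CPM in WT, groups that overlapped, with a fitted log2 difference of -0.11 (SE 0.11, edgeR adjusted p = 0.530) and a 95% interval of -0.35 to 0.12.

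**Figure D2:**
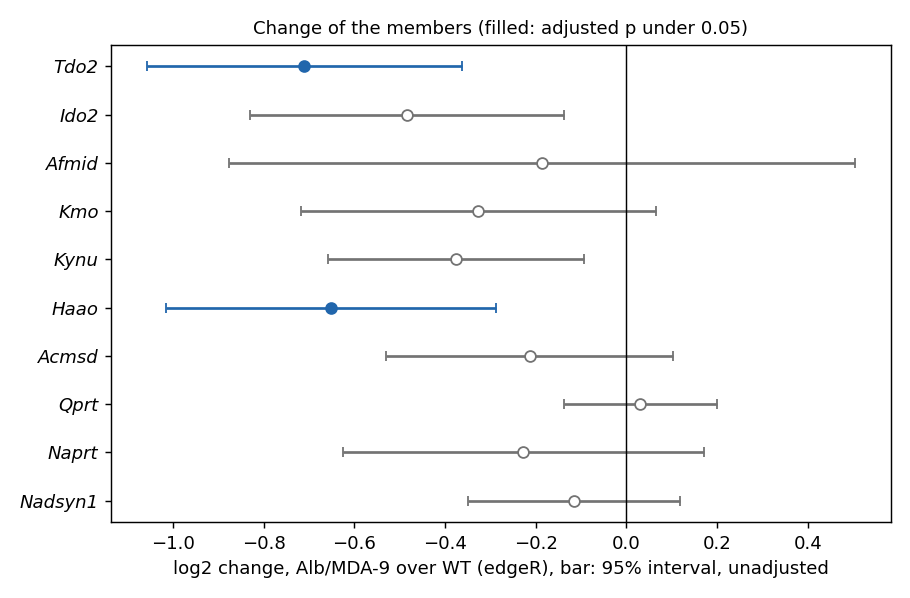
Fitted log2 change, Alb/MDA-9 over WT (horizontal axis), of the 10 members in pathway order from top to bottom. Points are edgeR estimates, bars are 95% intervals without adjustment for the number of genes tested, and filled points had an adjusted p under 0.05. Tdo2 at -0.71 and Haao at -0.65 are filled, and Qprt at 0.03 has the shortest bar.

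The members did not vary together among the Alb/MDA-9 libraries. Tdo2, Kmo, Haao and Acmsd were lowest in Alb/MDA-9 3, at 45.8%, 49.7%, 51.9% and 60.3% of the WT mean. Ido2, Kynu, Qprt, Naprt and Nadsyn1 were highest in the same library, at 90.7%, 94.0%, 110.8%, 111.7% and 99.0% of the WT mean, and Afmid was between the other two. Over all tested genes Alb/MDA-9 3 was the lowest of its group for 36.1% and the highest for 36.7%. It was at least 1.5-fold below both other Alb/MDA-9 libraries for 4.57% of tested genes, and among the members for Kmo (1.82-fold) and Acmsd (1.61-fold). In 4 of 10 members, Tdo2, Kmo, Kynu and Haao, each Alb/MDA-9 library was below each WT library, against 16.5% of all tested genes, and groups failed to overlap in either direction for 33.6%. The coefficient of variation was 7.36% to 32.9% in Alb/MDA-9 and 0.478% to 34.0% in WT, beside medians over tested genes of 10.5% in Alb/MDA-9 and 7.83% in WT, and it was larger in Alb/MDA-9 for each member except Afmid.

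**Figure D3:**
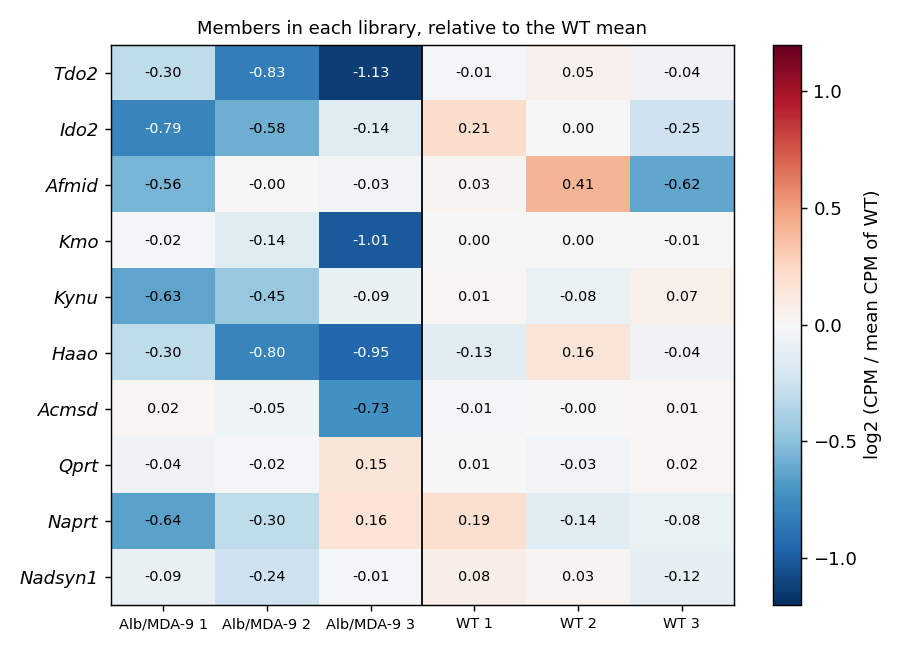
Log2 ratio of each library's CPM to the WT mean (colour and printed number) for the 10 members, with Alb/MDA-9 libraries in the left 3 columns and WT libraries in the right 3. The column of Alb/MDA-9 3 holds the lowest values of Tdo2 (-1.13), Kmo (-1.01), Haao (-0.95) and Acmsd (-0.73), and values near 0 for Ido2, Kynu and Nadsyn1.

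Compared per kb of exon, the order of levels was led by the branch-point enzymes in both genotypes. Acmsd had 33.9 ± 8.87 CPM per kb in Alb/MDA-9 and 39.3 ± 0.354 in WT, and Qprt followed with 18.7 ± 1.38 in Alb/MDA-9 and 18.3 ± 0.373 in WT (SD, n = 3). Kmo came next in both, with 7.75 ± 2.55 CPM per kb in Alb/MDA-9 and 9.74 ± 0.0466 in WT. In Alb/MDA-9 the order went on with Nadsyn1, Ido2, Tdo2, Naprt, Kynu, Haao and Afmid, and the libraries of neighbours overlapped from Kmo down to Haao. In WT it went on with Tdo2, Ido2, Nadsyn1, Naprt, Kynu, Haao and Afmid, and neighbours overlapped only between Tdo2 and Naprt. Tdo2 thus had rank 6 in Alb/MDA-9 and rank 4 in WT, at 4.96 ± 1.47 CPM per kb in Alb/MDA-9 and 8.13 ± 0.285 in WT. Exon length here is that of all annotated exons merged, which understates genes with long exons that are seldom used.

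The 250 bases before the transcription start are printed for Tdo2 and Haao, which passed the test, and for Kmo, which shared with them a low value in Alb/MDA-9 3. The sequences are from RefSeq on GRCm38.p6 and are written 5′ to 3′ on the strand of the gene, and capitals mark the motifs searched on both strands. Tdo2 is at chr3:81975729-81975978 on the minus strand, Haao at chr17:83846791-83847040 on the minus strand and Kmo at chr1:175631943-175632192 on the plus strand.
Tdo2: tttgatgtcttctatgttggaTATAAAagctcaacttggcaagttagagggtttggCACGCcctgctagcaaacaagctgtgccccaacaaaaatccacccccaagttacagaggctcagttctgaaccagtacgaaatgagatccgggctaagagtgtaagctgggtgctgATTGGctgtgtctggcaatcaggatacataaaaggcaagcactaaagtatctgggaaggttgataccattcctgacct
Haao: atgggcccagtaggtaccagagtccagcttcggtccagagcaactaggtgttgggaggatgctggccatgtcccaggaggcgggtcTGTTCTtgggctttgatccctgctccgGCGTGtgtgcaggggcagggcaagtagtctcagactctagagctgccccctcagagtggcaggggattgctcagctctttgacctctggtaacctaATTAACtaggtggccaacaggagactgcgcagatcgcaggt
Kmo: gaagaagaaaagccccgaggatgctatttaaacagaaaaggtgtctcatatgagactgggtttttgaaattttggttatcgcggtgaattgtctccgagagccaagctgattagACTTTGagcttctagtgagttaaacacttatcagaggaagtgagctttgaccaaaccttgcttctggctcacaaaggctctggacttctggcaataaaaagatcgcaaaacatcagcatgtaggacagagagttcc

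The 6 motifs were TGTTCT (part of the glucocorticoid receptor site), GCGTG (core of the aryl hydrocarbon receptor site), CAAAGT (part of the HNF4 site), CCAAT (the CCAAT box), TATAAA (the TATA box) and GTTAAT, searched by its letters. GCGTG lay 194 bases before the start of Tdo2 on the other strand and 137 bases before that of Haao on its own strand, and 28.3% of 32536 promoters of this length held it. Tdo2 also held CCAAT and TATAAA, which 33.8% and 12.3% of promoters held. Haao also held TGTTCT and GTTAAT, found in 16.03% and 6.47% of promoters, and Kmo held CAAAGT, found in 12.6%. None of the 6 lay in the windows of Afmid, Qprt or Nadsyn1. For Ido2, Kynu and Naprt no promoter sequence was available, so they were not searched. The start in RefSeq was 11812 bases from the outermost GENCODE start of Kmo and 1173 and 474 bases from those of Haao and Tdo2, so other starts of these genes lie outside the windows.

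Beyond the members, enzymes that handle kynurenine and tryptophan by other routes moved in both directions. Of 16 genes 13 passed the filter, 1 rose and 2 fell, and the list's median log2 change was -0.09. Counts in this and the following lists stand beside 7.35% of all tested genes that rose and 7.09% that fell. Kyat1, a kynurenine aminotransferase that makes kynurenic acid and also acts on cysteine conjugates, had 16.9, 17.1 and 24.3 CPM in Alb/MDA-9 libraries and 57.6, 47.3 and 48.7 CPM in WT. All Alb/MDA-9 libraries were below all WT libraries, and the log2 change of -1.40 (SE 0.13, edgeR adjusted p = 3.1e-05) was larger than that of any member and passed the test under each alternative tried. Its paralogue Kyat3, with a like activity, was higher, at 113.6, 115.4 and 119.7 CPM in Alb/MDA-9 libraries and 84.6, 89.3 and 88.2 CPM in WT (log2 change 0.41, SE 0.07, edgeR adjusted p = 0.00145). Aldh8a1, a dehydrogenase on the oxidative branch after Acmsd, had 4.64, 4.25 and 4.46 CPM in Alb/MDA-9 libraries and 6.66, 6.87 and 6.98 CPM in WT (log2 change -0.62, SE 0.16, edgeR adjusted p = 0.0249). The falls in the list numbered 1 without Alb/MDA-9 2 or without any single WT library and 4 without Alb/MDA-9 3 (Gcdh and Wars added).

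Of 8 transporters of tryptophan and other aromatic amino acids, 0 rose and 2 fell, against 7.35% and 7.09% of all tested genes. The list's median log2 change was -0.43. Slc7a5, the light chain of the exchanger LAT1, had 29.01, 32.8 and 22.2 CPM in Alb/MDA-9 libraries and 39.9, 38.7 and 34.9 CPM in WT (log2 change -0.43, SE 0.12, edgeR adjusted p = 0.0350). Slc16a10, a carrier of aromatic amino acids, had 25.4, 18.3 and 19.6 CPM in Alb/MDA-9 libraries and 31.4, 27.5 and 25.9 CPM in WT (log2 change -0.42, SE 0.13, edgeR adjusted p = 0.0452). The groups did not overlap for either gene, as was so for 33.6% of all tested genes. In this list 0 genes fell without WT 1 or without WT 2, and 1 fell without any one of the other libraries.

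NAD is also recycled from nicotinamide. Of 14 genes of salvage, phosphorylation and transport, 10 passed the filter, 1 rose and 0 fell, and the list's median log2 change was -0.08. Nampt, the rate-limiting enzyme of salvage, had 188.2, 173.8 and 129.6 CPM in Alb/MDA-9 libraries and 176.9, 188.3 and 183.7 CPM in WT, a fitted log2 difference of -0.16 (SE 0.11, edgeR adjusted p = 0.386), with Alb/MDA-9 3 below the other libraries, and -0.017 without that library. Nt5e, the ecto-nucleotidase CD73, rose, with 68.3, 69.5 and 81.0 CPM in Alb/MDA-9 libraries and 55.0, 49.6 and 52.0 CPM in WT (log2 change 0.48, SE 0.08, edgeR adjusted p = 0.00229). Without Alb/MDA-9 3, 1 gene of this list fell (Nadk, an NAD kinase).

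Of 23 genes that consume NAD or clear nicotinamide, 21 passed the filter, 1 rose and 5 fell, and the list's median log2 change was 0.01. Aox3, an aldehyde oxidase of mouse liver, had 6.41, 3.14 and 3.43 CPM in Alb/MDA-9 libraries and 11.7, 12.7 and 12.2 CPM in WT (log2 change -1.49, SE 0.23, edgeR adjusted p = 0.000932). Cd38, an NAD glycohydrolase known from immune cells, had 3.32, 3.20 and 3.07 CPM in Alb/MDA-9 libraries and 6.31, 7.02 and 4.73 CPM in WT (log2 change -0.92, SE 0.21, edgeR adjusted p = 0.0109). In the same libraries 10 of 14 tested Kupffer cell and macrophage markers fell and 0 rose, against 7.09% and 7.35% of all tested genes. The part of these cells in the Cd38 value was not tested. Nudt7, a coenzyme A diphosphatase of peroxisomes, fell as well (log2 change -0.47, SE 0.11, edgeR adjusted p = 0.0151), and Parp3, an ADP-ribosyltransferase, rose (log2 change 0.32, SE 0.08, edgeR adjusted p = 0.0199). The groups did not overlap for any of these 4 genes, which were named for the smallest adjusted p of the list. Groups failed to overlap for 33.6% of all tested genes. The falls numbered 2 without Alb/MDA-9 2, WT 1 or WT 2 and 3 without WT 3. The single rise was lost with library totals and without Alb/MDA-9 2 or any single WT library, and 2 genes rose without Alb/MDA-9 3 (Parp3 and Sirt2).

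Kynurenine and kynurenic acid are known ligands of the aryl hydrocarbon receptor. Of 8 genes for this receptor and its targets, 6 passed the filter, 1 rose and 4 fell, against 7.35% and 7.09% of all tested genes. The list's median log2 change was -0.67. The receptor gene Ahr rose, at 114.8, 105.7 and 93.9 CPM in Alb/MDA-9 libraries and 64.3, 68.3 and 72.1 CPM in WT (log2 change 0.62, SE 0.09, edgeR adjusted p = 0.00046). Its target Cyp1a1 had 0.166, 0.582 and 0.482 CPM in Alb/MDA-9 libraries and 1.57, 2.36 and 2.78 CPM in WT, and the target Cyp1a2 had 39.6, 46.0 and 43.3 CPM in Alb/MDA-9 libraries and 72.1, 69.4 and 61.2 CPM in WT (edgeR adjusted p = 0.003 and 0.000359). Tiparp, another target, had 73.8, 61.7 and 42.9 CPM in Alb/MDA-9 libraries and 106.2, 85.6 and 93.8 CPM in WT (log2 change -0.68, SE 0.15, edgeR adjusted p = 0.0102). Receptor and targets thus went opposite ways, with no overlap between the groups for these 4 genes. They were named for the smallest adjusted p of the list, a choice that favours such a gap. Groups failed to overlap for 33.6% of all tested genes. The Cyp1a1 value of Alb/MDA-9 1, 0.166 CPM, was near that of 3 reads. The falls numbered 2 without WT 1.

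Tdo2 is a classic glucocorticoid-inducible gene of hepatocytes, so the receptor gene Nr3c1 and 12 of its hepatocyte targets were examined. All 13 passed the filter, 0 rose and 8 fell, against 7.35% and 7.09% of all tested genes. The list's median log2 change was -0.40. Tat, the tyrosine aminotransferase long studied beside Tdo2 as a hormone-induced enzyme, had 18.8, 9.67 and 4.46 CPM in Alb/MDA-9 libraries and 76.4, 85.0 and 69.7 CPM in WT. Pck1, of gluconeogenesis, had 3.15, 2.15 and 0.662 CPM in Alb/MDA-9 libraries and 15.4, 15.2 and 9.29 CPM in WT. For both genes, as for Tdo2, Alb/MDA-9 1 was the highest and Alb/MDA-9 3 the lowest library of its group. Fkbp5, Per1 and G6pc had this order too and passed the test as lower. Nr3c1, Tsc22d3, Sgk1, Mt2 and Sds did not have this order, and Mt1, Dusp1 and Igfbp1 had it without passing the test. Alb/MDA-9 3 was the lowest of its group for 36.1% of all tested genes, and the share with the full order was not counted. Whether these genes share a control with Tdo2 was not tested. Tsc22d3, which encodes the leucine zipper protein GILZ, had 23.9, 25.3 and 26.6 CPM in Alb/MDA-9 libraries and 34.3, 35.5 and 37.6 CPM in WT (log2 change -0.50, SE 0.09, edgeR adjusted p = 0.00203), and Sds, a serine dehydratase, also fell (log2 change -2.14, SE 0.37, edgeR adjusted p = 0.00229). Nr3c1 itself had 75.2, 78.1 and 60.1 CPM in Alb/MDA-9 libraries and 86.2, 85.8 and 90.1 CPM in WT, groups that did not overlap but missed the threshold (log2 change -0.30, SE 0.09, edgeR adjusted p = 0.0524, and -0.19 without Alb/MDA-9 3). Without Alb/MDA-9 3, 2 genes of the list rose (Igfbp1 and Dusp1).

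Of 14 hepatocyte transcription factors, 2 rose and 2 fell, and the list's median log2 change was 0.02. Prox1 rose, at 102.3, 99.1 and 84.4 CPM in Alb/MDA-9 libraries and 60.5, 58.8 and 66.4 CPM in WT (log2 change 0.62, SE 0.09, edgeR adjusted p = 0.000514). The xenobiotic receptor genes Nr1i2 (PXR) and Nr1i3 (CAR) fell (edgeR adjusted p = 0.0107 and 0.00683), Nr1i3 at 0.553, 0.0582 and 0.120 CPM in Alb/MDA-9 libraries and 1.46, 2.26 and 1.36 CPM in WT. Hnf4a, with 495 ± 14.5 CPM in Alb/MDA-9 libraries and 532 ± 16.8 CPM in WT, and Ppara, with 21.7 ± 2.04 CPM in Alb/MDA-9 libraries and 22.8 ± 0.933 CPM in WT (SD, n = 3), did not pass (edgeR adjusted p = 0.350 and 0.705). The falls numbered 1 without Alb/MDA-9 2 or WT 2.

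Markers of other liver cells moved with the genotype. Beside the Kupffer list, 4 of 9 tested endothelial markers fell and 0 rose, and 0 of 11 markers of stellate cells and fibroblasts rose and 5 fell, with stellate falls of 2 or 3 without Alb/MDA-9 2 or any single WT library. Over all tested genes 7.09% fell and 7.35% rose. The summed level of the endothelial list was 193.6 to 210.7 CPM in Alb/MDA-9 libraries and 252.3 to 275.7 CPM in WT, and that of the stellate list 223.1 to 286.7 CPM in Alb/MDA-9 libraries and 321.3 to 343.8 CPM in WT. Reln led the stellate sum, and the other 10 genes summed to 118.2 to 127.5 CPM in Alb/MDA-9 libraries and 178.0 to 187.3 CPM in WT. Of 5 tested cholangiocyte markers 3 rose and 1 fell, with Cftr at 0 in every library and a summed level of 251.5 to 360.1 CPM in Alb/MDA-9 libraries and 52.8 to 60.9 CPM in WT, which Spp1 led in Alb/MDA-9, and the other 5 genes summed to 80.0 to 83.6 CPM in Alb/MDA-9 libraries and 51.4 to 60.1 CPM in WT. Of 7 lymphocyte markers 0 were abundant enough to test and 5 were at 0 in every library. The part of these cells in the member values was not tested.

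**Figure D4:**
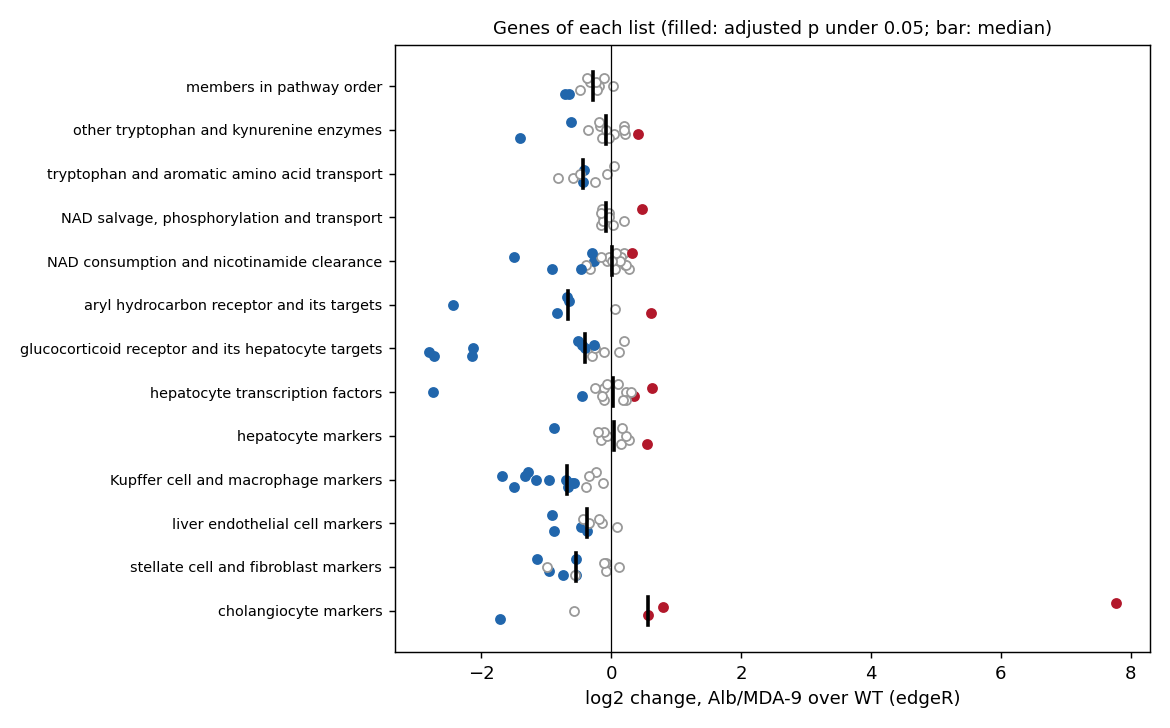
Fitted log2 change, Alb/MDA-9 over WT (horizontal axis), of each tested gene in the 10 members, 7 pathway lists and marker lists (rows). Filled points had an edgeR adjusted p under 0.05, red for higher and blue for lower, and black bars are medians. The members have a median of -0.28, the glucocorticoid list extends to Tat at -2.80, and Spp1 at 7.77 is the outermost marker.

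The pattern of Tdo2 over the 6 libraries was most like those of Phtf1os, Sema6d and Cyp4f14 among 13225 genes with reads in every library, by the root mean square difference of mean-centred log2 CPM (0.0704, 0.0771 and 0.0786). Sema6d, a semaphorin gene, had 9.95, 7.40 and 6.20 CPM in Alb/MDA-9 libraries and 14.0, 13.6 and 14.0 CPM in WT. Cyp4f14, a cytochrome P450 gene, had 18.8, 14.5 and 11.98 CPM in Alb/MDA-9 libraries and 24.4, 24.2 and 22.0 CPM in WT. Both fell (edgeR adjusted p = 0.00551 and 0.0106), while Phtf1os lay at or below 1.33 CPM in each library and did not pass (edgeR adjusted p = 0.182). All of them were chosen for a pattern that includes the fall of Tdo2, so their lower values in Alb/MDA-9 follow from the choice.

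The 10 members lie on 8 chromosomes, with Kmo and Acmsd on chromosome 1 and Qprt and Nadsyn1 on chromosome 7. Nadsyn1 lies 296 bases from the cholesterol synthesis gene Dhcr7, on the other strand, which did not pass the test (log2 change 0.04, SE 0.09, edgeR adjusted p = 0.812). Ctso, a cathepsin gene 365 bases from the 3′ end of Tdo2, did not pass either (log2 change -0.15, SE 0.12, edgeR adjusted p = 0.444). The neighbours of Haao moved in opposite directions, with Mta3, a chromatin remodelling gene, higher (log2 change 0.32, SE 0.09) and Zfp36l2, an mRNA decay factor gene, lower (log2 change -0.32, SE 0.09; edgeR adjusted p = 0.0347 and 0.0263). Of the nearest tested protein-coding genes on either side of the 10 members, 2 rose (Mta3 and Tcim) and 4 fell (Zfp36l2, Birc5, Tmem163 and Kif22), against 7.35% and 7.09% of all tested genes.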

How the data were processed

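RNA from cultured primary hepatocytes of 3 Alb/MDA-9 and 3 WT libraries was sequenced after TruSeq library preparation, per the labels' protocols. Per the submitters' processing notes, the tools were STAR 2.7.9a, edgeR 3.18.1, FastQC 0.11.2 and Trim Galore 0.6.6, with GRCm38 and mm10 as builds. The annotation release they used is not stated there. Every deposited table holds raw read counts per gene in columns for either strand and each strand, not normalised, as STAR writes them, from reads placed at a single site and gene. The reverse-strand column, with 96.9% to 97.2% of stranded reads in each library, was used. The first 4 rows, which name no gene, were left out. Of all reads, 9.39% in Alb/MDA-9 and 9.67% in WT were unmapped and 19.3% and 20.1% hit several sites. A further 5.12% and 5.34% lay outside genes, and 0.811% and 0.820% overlapped more than 1 gene. Symbols and positions came from GENCODE M21, which held 55227 of 55487 identifiers.

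Genes passing filterByExpr (minimum count 10) were scaled by TMM and fitted with the quasi-likelihood model of edgeR 4.0.16 (limma 3.58.1, R 4.3.3), without covariates, with 4 residual degrees of freedom among libraries, at a Benjamini-Hochberg adjusted p of 0.05 over all 13296 genes. The script was tested on simulated data. Intervals of log2 changes are 95% and unadjusted, and Poisson intervals and read floors cover counting error only, since the labels name no molecular identifiers. Alternatives were DESeq2 1.42.0, voom, other scalings, filters and count column, a test against a 1.5-fold change, a replicate block and leaving out each library. Summed marker levels without the leading gene were added after seeing the data. Exact permutation tests used scipy 1.17.1. Transcripts were searched for copies with at least 97% identity over 100 bases in other genes. Members and lists were chosen with earlier results of these data known. Named outside the members are, for each list, up to 4 genes past the threshold with the smallest adjusted p, 6 genes whose role bears on a member, nearest neighbours, and the 3 genes most like Tdo2. Overlapping genes, markers, further genes of the glucocorticoid list and genes called when a library was left out were named after their values were seen. A promoter sequence and a gene of the lists are not reported here.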

Additional observations from a re-analysis of the deposited data

Results flagged for a closer look

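Reads on the strand opposite Acmsd, which enter no comparison above, were above the WT level in each Alb/MDA-9 library: 7.72, 5.64 and 5.31 CPM of all counted reads in Alb/MDA-9 1, 2 and 3 and 4.38, 4.92 and 4.94 in WT 1, 2 and 3. They made up 5.02% of stranded reads over Acmsd, and at most 2.5% over any other member. The annotated antisense gene 2900009J06Rik overlaps Acmsd there and had 10.2, 9.08 and 6.98 CPM in Alb/MDA-9 libraries and 6.36, 7.28 and 6.39 CPM in WT, groups that overlapped (log2 change 0.39, SE 0.17, edgeR adjusted p = 0.157). Acmsd was picked from the members by this gap. The opposite-strand reads numbered 147, 102 and 89 in Alb/MDA-9 1, 2 and 3 and 83, 93 and 81 in WT 1, 2 and 3. For Alb/MDA-9 2 and 3 the gap to the highest WT level was thus within counting error, and Alb/MDA-9 1 stood further off. On the annotated strand, 17.1% of tested genes were higher in Alb/MDA-9 without overlap of the groups.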

How the results depend on the processing

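Over 15 alternatives the count of members that rose was 0 throughout. The 2 members that fell became 4 with library totals or voom, 5 without a low-count filter, 0 in the test against a fold of 1.5, and 0 to 4 when a library was left out. Library totals shifted the median of all genes by -0.10 on the log2 scale. Of 150 member values, 129 kept direction and side of the threshold, 6 lost the call, 11 gained it and 4 changed sign: Qprt was -0.072 with library totals, -0.0084 with upper-quartile factors and -0.032 to 0.067 over the libraries left out, and Afmid, at -0.19, was -0.41 to 0.073 over them. Of all genes, 977 rose and 943 fell, with 525 and 1622 for library totals, 84 and 156 against a fold of 1.5, and 503 to 1178 and 515 to 1208 with a library left out. In the other 7 pathway lists 6 genes rose and 23 fell, with 0 and 8 against a fold of 1.5, and 5 to 10 and 14 to 25 with a library left out. With the replicate number as a block 775 genes rose and 826 fell, with 2 members lower. Deviations of same-numbered libraries did not correlate (r = -0.0408, -8.73e-05 and -0.0619). Whether the numbers pair the libraries is not known, since a small shared effect could leave r near 0. Of 803 values for the 54 called genes of the lists, 120 lost the call and 0 changed sign. Afmid, with 25 to 59 reads a library, is limited by depth. Where calls changed, the cause was not tested.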

Other observations

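Ddc and Aadat, outside the 10 members, were also lowest of their group in Alb/MDA-9 3, and were picked after their values were seen. Of the same list, Maoa was lowest there too, while Kyat1, Kyat3, Got2, Gcdh, Il4i1, Wars, Wars2 and Maob were highest there. Over all tested genes this library was the lowest of its group for 36.1% and the highest for 36.7%. Ddc, the aromatic amino acid decarboxylase, had 136.8, 134.5 and 60.1 CPM in libraries Alb/MDA-9 1, 2 and 3 and 111.0, 113.4 and 127.7 CPM in WT (log2 change -0.09, SE 0.22, edgeR adjusted p = 0.839), and the log2 change was 0.21 without Alb/MDA-9 3 (edgeR adjusted p = 0.0765). Aadat, a further kynurenine aminotransferase, had 21.1, 16.4 and 11.6 CPM in Alb/MDA-9 libraries and 19.8, 20.7 and 22.2 CPM in WT (log2 change -0.35, SE 0.17, edgeR adjusted p = 0.198), and the log2 change was -0.16 without Alb/MDA-9 3 (edgeR adjusted p = 0.418).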
